A study of Mus musculus with 2 samples.

Results

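The 10 genes described here serve the identity and the light signaling of retinal bipolar cells. They are Grm6, Trpm1, Gng13, Isl1, Vsx1, Cabp5, Pcp2, Scgn, Lhx4 and Prkca, and each was found by its symbol in the gene lists of both libraries, so that all 10 of 10 genes named by the rule were measured, among 30905 genes in all. Bipolar cells are the interneurons that carry the photoreceptor signal to amacrine and ganglion cells. ON bipolar cells read glutamate through the metabotropic receptor mGluR6, the product of Grm6, which acts through a Go-type G protein and closes the cation channel TRPM1 in the dark, whereas OFF bipolar cells use ionotropic glutamate receptors. Bipolar cells are among the last neurons to be born, and they arise from precursors that also give rods.

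The study deleted Mettl3, which encodes the catalytic subunit of the writer of the RNA mark m6A, in retinal progenitor cells (RPCs). The control group and the Mettl3-CKO group (Six3-Cre with both Mettl3 alleles floxed) were littermates at postnatal day 7, and each group was 1 single-cell library made from 2 retinas of 2 pups mixed together after papain digestion. The Cre and floxed alleles that the control pups carried, the strain and the sex are not given in the sources used here. Six3-Cre acts in the developing retina, and the study describes the deletion in the central retina, so cells that escaped it may be in the Mettl3-CKO pool. With 1 library a group there is no replicate and no test between genotypes: all intervals are 95% intervals and cover counting error only.

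The matrices read here end before the size stated in their first lines, so that complete values were at hand for 3994 control cells (66.6% of the listed barcodes) and 3109 Mettl3-CKO cells (44.5%), with 20955138 and 19957693 UMIs (unique molecular identifiers, 1 for each captured transcript) and medians of 4520.5 and 5207 UMIs per cell. The libraries shared 5 cell barcodes. Cells were clustered without the 10 genes, and clusters were named from other markers. The bipolar-like class held 159 control and 83 Mettl3-CKO cells (3.98% and 2.67% of the cells read), with medians of 7685 and 7637 UMIs, and the rod/bipolar precursor-like class held 213 and 201. Levels are UMIs summed over the cells of a class and library and scaled to all UMIs of the same cells as CPM. They count 3′ tags and are not scaled to length, so each is compared between libraries or classes for 1 gene and not between genes. Mettl3 itself had 828 control and 660 Mettl3-CKO UMIs over all cells, 39.5 against 33.1 CPM (ratio 0.837, interval 0.754 to 0.928), and 39.8 against 37.1 CPM in bipolar-like cells. A 3′ tag outside the deleted part does not show the deletion, and the sources used here do not say which exon was floxed.

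The bipolar-like class was named from 10 markers outside the set, so their presence is no separate check of the label. All 10 had UMIs in control cells and 9 in Mettl3-CKO cells, where Car8 was at 0. Their summed level was 6155 CPM in control and 5814 CPM in Mettl3-CKO, and Otx2, a homeodomain gene of bipolar cells and their precursors, stood at 2812 against 2803 CPM. Trnp1, another of the markers, was lower in Mettl3-CKO (397 against 122 CPM, ratio 0.308, interval 0.240 to 0.391). Of the markers of other classes, the 9 rod markers summed to 1186 and 1604 CPM (ratio 1.35), with Gnat1 at 0 in Mettl3-CKO, and the 5 horizontal cell markers to 314 and 613 CPM (ratio 1.95), nearly all from Onecut2 (255 and 555 CPM), with Lhx1 at 0 in both. The 10 amacrine markers summed to 74.2 and 71.1 CPM, with Gad1 and Slc32a1 at 0 in both, and the 10 Müller markers to 430 and 425 CPM. Of the rod marker UMIs, 1237 of 1518 in control and 928 of 1038 in Mettl3-CKO were in 1 subcluster of 12 and 10 cells, led by rod genes. A run without that subcluster is given among the alternatives below. The part of the other markers in the results on bipolar-like cells was not tested.

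CRX and OTX2, homeodomain factors of photoreceptors and bipolar cells, bind the letters TAATCC, which read GGATTA on the opposite strand. RefSeq promoter windows of 300 bases (250 before and 50 after a start, build GRCm38.p6) were at hand for all 10 genes, 15 windows in all. The 6 letters, sought on both strands, occurred in 3 of the 15 windows and in 3 of the 10 genes, Trpm1, Isl1 and Cabp5 (2 matches in Cabp5), against 2320 of 32851 windows of all genes (7.06%). The homeodomain letters TAATTA, which read the same on both strands and overlapped none of these matches, occurred in 1 window, of Pcp2, and in 5.29% of all windows. The 3 windows with TAATCC are shown with the match in capitals, beside that of Grm6, the receptor gene with the lowest Mettl3-CKO level relative to control over all cells, which has no match. Windows lie at chr7:64153585-64153884 (plus strand), chr13:116309639-116309938 (minus strand), chr7:13397905-13398204 (plus strand) and chr11:50850435-50850734 (plus strand) and are written 5′ to 3′ on the gene's strand.
Trpm1: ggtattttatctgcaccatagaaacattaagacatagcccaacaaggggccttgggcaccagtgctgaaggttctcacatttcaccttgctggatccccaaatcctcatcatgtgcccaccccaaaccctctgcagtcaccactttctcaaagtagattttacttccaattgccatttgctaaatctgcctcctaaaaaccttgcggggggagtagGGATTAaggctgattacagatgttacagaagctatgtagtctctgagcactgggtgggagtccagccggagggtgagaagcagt
Isl1: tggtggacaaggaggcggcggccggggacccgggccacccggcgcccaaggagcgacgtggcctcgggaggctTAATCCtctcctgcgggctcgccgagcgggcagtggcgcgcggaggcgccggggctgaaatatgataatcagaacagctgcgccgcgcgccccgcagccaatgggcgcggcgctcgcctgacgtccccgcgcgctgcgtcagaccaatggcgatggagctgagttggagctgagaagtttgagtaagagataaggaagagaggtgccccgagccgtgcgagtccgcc
Cabp5: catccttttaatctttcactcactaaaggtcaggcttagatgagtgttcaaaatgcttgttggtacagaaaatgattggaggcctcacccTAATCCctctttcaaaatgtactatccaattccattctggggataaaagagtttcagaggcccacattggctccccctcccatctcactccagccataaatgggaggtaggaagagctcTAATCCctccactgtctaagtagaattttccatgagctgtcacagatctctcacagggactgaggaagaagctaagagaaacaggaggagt
Grm6: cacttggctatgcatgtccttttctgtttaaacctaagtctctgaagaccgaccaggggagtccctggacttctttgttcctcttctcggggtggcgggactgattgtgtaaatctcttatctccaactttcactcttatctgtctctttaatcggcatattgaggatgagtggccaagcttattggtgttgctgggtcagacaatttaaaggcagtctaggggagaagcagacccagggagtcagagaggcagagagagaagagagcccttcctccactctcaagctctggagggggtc
Of the genes with the letters, Trpm1 and Isl1 stood lower in Mettl3-CKO bipolar-like cells and Cabp5 did not. Grm6 is shown because of its low level. A match is a description of the letters only, and its relation to the levels was not tested.

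In bipolar-like cells, most of the 10 genes were lower in Mettl3-CKO. Of the 9 genes with at least 20 UMIs, 7 were at least 1.5-fold lower in Mettl3-CKO, where 12.8% of the 8744 genes with as many UMIs were, and 0 were at least 1.5-fold higher (9.58% of all). Grm6, Gng13, Scgn and Prkca, 4 of the 9, were at least 4-fold lower, against 0.572% of all genes. The median log2 ratio was -1.72 for the 9 genes and -0.05 for all genes, and 6 intervals lay below 1 and 1 above, as 9.86% and 7.09% of the intervals of all genes did. The plot of levels by class shows each gene in each library.

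**Figure D1:**
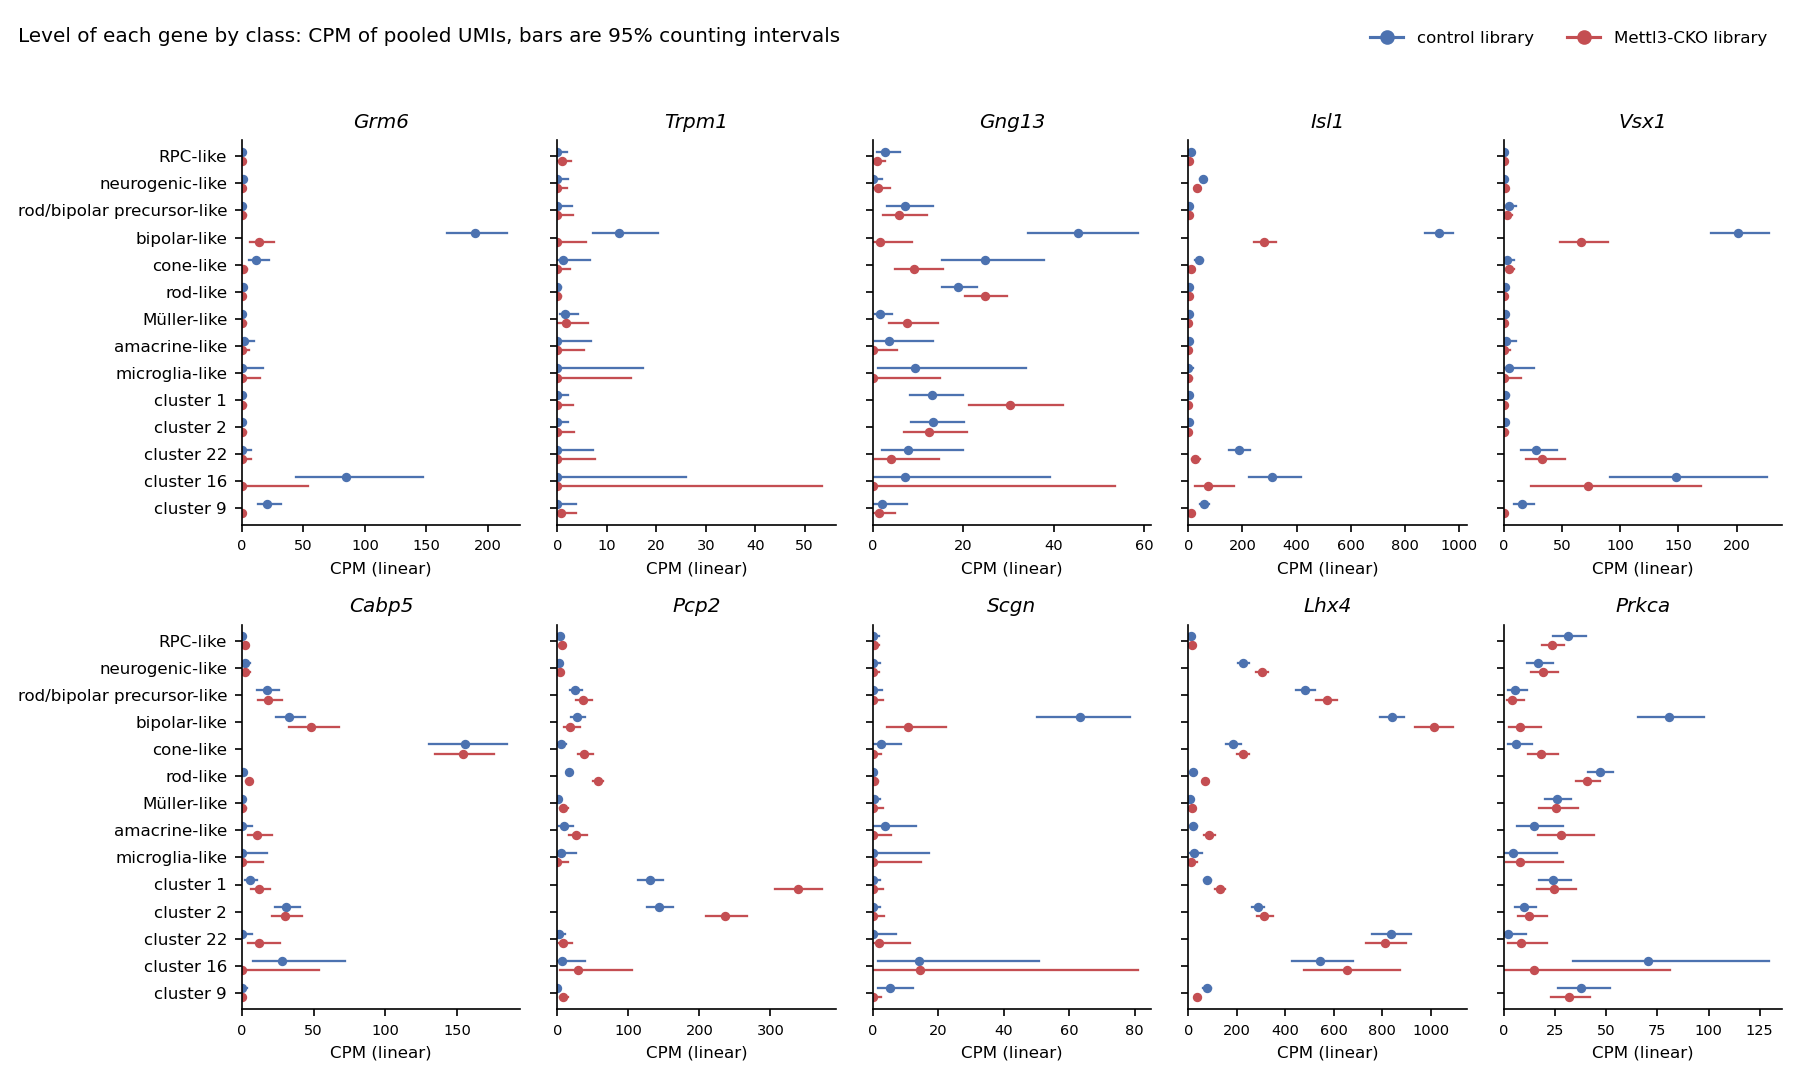
Level of each of the 10 genes (horizontal axis, CPM, linear, 1 panel a gene with its own scale) in control and Mettl3-CKO cells. The vertical axis lists 14 classes or clusters, without clusters 4, 17 and 24, and bars are exact 95% Poisson intervals. Grm6, Isl1, Vsx1 and Scgn stood highest in control bipolar-like cells (190, 924, 202 and 63.3 CPM), whereas Lhx4 was high in both libraries.

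The receptor, channel and G protein genes of the ON pathway had few UMIs in Mettl3-CKO. Gene positions are from GENCODE vM21 on GRCm38. Grm6 (ENSMUSG00000000617, chr11:50850685-50866208, plus strand) had 243 UMIs in control and 9 in Mettl3-CKO bipolar-like cells, which is 190 CPM (interval 167 to 215) against 13.9 CPM (6.36 to 26.4), a ratio of 0.0733 (0.0331 to 0.141). Trpm1 (ENSMUSG00000030523, chr7:64153835-64269775, plus strand), the channel gated by mGluR6, had 16 UMIs in control (12.5 CPM, 7.14 to 20.3) and 0 in Mettl3-CKO (up to 5.70 CPM). Taken against a floor of 3 UMIs, Trpm1 was at least 2.70-fold lower. Gng13 (ENSMUSG00000025739, chr17:25717171-25719406, plus strand), the gamma subunit of the G protein of ON bipolar cells, had 58 UMIs and 1 UMI, which is 45.3 CPM (34.4 to 58.6) and 1.55 CPM (0.0391 to 8.61), a ratio of 0.0341 (0.000849 to 0.198). For all 3 genes the counting intervals of the libraries did not overlap. In control, the 16 Trpm1 UMIs came from 4 of 159 cells and the 58 Gng13 UMIs from 15. In Mettl3-CKO, Trpm1 was seen in 0 and Gng13 in 1 of 83 cells. UMIs of the same cell are not independent, so these intervals understate the uncertainty. The annotation places Gng13 over Chtf18 on the other strand, which had 141 UMIs in all, and the strand setting of the counting is not given in the sources used here, so a part of the Gng13 counts could be Chtf18 reads.

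Other genes of the mGluR6 cascade were lower as well. They are from a list of 10 that holds none of the set. Like the other lists used here, it was chosen with earlier results of these data known, so it is not separate support. Of the 6 with at least 20 UMIs in bipolar-like cells, 6 were at least 1.5-fold lower (12.8% of all genes) and 5 had an interval below 1 (9.86% of all genes), with a median log2 ratio of -1.07 (-0.05 for all genes). Gpr179, the orphan receptor that holds RGS proteins at the dendritic tips, stood at 67.2 CPM in control and 9.27 CPM in Mettl3-CKO (ratio 0.138, 0.0493 to 0.313). Rgs11, a GTPase-activating protein of the cascade, had 26 and 2 UMIs (20.3 against 3.09 CPM). The G protein subunits were lower by less. Gnao1, the Go alpha subunit, stood at 225 against 110 CPM (ratio 0.488, 0.371 to 0.634), Gnb3, the beta subunit, at 887 against 485 CPM (0.547, 0.481 to 0.620) and Gnb5, which pairs with RGS proteins, at 144 against 66.4 CPM (0.462, 0.324 to 0.647). Rgs7, Rgs7bp, Nyx and Lrit3 had at most 4 UMIs in either library and could not be compared at this depth.

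The transcription factor genes of the set parted, with Isl1 and Vsx1 lower and Lhx4 not. Isl1 (ENSMUSG00000042258, chr13:116298281-116309689, minus strand), a LIM homeodomain gene of ON bipolar cells and of amacrine and ganglion cell types, had 1183 and 182 UMIs, which is 924 CPM (872 to 978) against 281 CPM (242 to 325), a ratio of 0.304 (0.259 to 0.356). Vsx1 (ENSMUSG00000033080, chr2:150680702-150689360, minus strand), a homeodomain gene of cone bipolar cells, had 258 and 43 UMIs, 202 CPM (178 to 228) against 66.4 CPM (48.1 to 89.5), a ratio of 0.330 (0.233 to 0.457). Lhx4 (ENSMUSG00000026468, chr1:155698031-155751684, minus strand), a LIM homeodomain gene of cones and developing bipolar cells, had 1073 and 655 UMIs, 838 CPM (789 to 890) against 1012 CPM (936 to 1093), a ratio of 1.21 (1.09 to 1.33). Lhx4 was thus the 1 gene of the set whose interval lay above 1. It made up most of the summed level in Mettl3-CKO. The sum of the 10 genes was 2416 CPM in control and 1460 CPM in Mettl3-CKO (ratio 0.604, 0.561 to 0.650), and without Lhx4, a sum added after the data were seen, it was 1578 and 448 CPM (ratio 0.284, 0.250 to 0.321).

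A list of 10 other transcription factor genes of bipolar subtypes held both kinds. Of its 8 genes with at least 20 UMIs, 3 were at least 1.5-fold lower (12.8% of all genes) and 0 higher (9.58%), with a median log2 ratio of -0.30. Lhx3 stood at 75.0 against 9.27 CPM (ratio 0.124, 0.0443 to 0.279), Bhlhe23, a basic helix-loop-helix gene of rod bipolar cells, at 118 against 34.0 CPM (0.288, 0.175 to 0.453) and Irx6 at 38.3 against 10.8 CPM (0.283, 0.108 to 0.627). Fezf2 was at 183 and 243 CPM, with an interval of the ratio above 1 (1.08 to 1.63), and Zfhx4 and Bhlhe22 had intervals that included 1.

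Of the calcium-binding and signaling genes, Prkca and Scgn were lower, and Cabp5 and Pcp2 had intervals that included 1. Prkca (ENSMUSG00000050965, chr11:107933387-108343928, minus strand) encodes protein kinase C alpha, the usual marker of rod bipolar cells, and had 103 and 5 UMIs, 80.5 CPM (65.7 to 97.6) against 7.73 CPM (2.51 to 18.0), a ratio of 0.0960 (0.0305 to 0.231). Scgn (ENSMUSG00000021337, chr13:23953456-23991214, minus strand), the calcium sensor secretagogin of cone bipolar cells, had 81 and 7 UMIs, 63.3 CPM (50.2 to 78.6) against 10.8 CPM (4.35 to 22.3), a ratio of 0.171 (0.0666 to 0.369). For both genes the intervals of the libraries lay apart. Cabp5 (ENSMUSG00000005649, chr7:13398132-13408887, plus strand), a calmodulin-like calcium-binding protein of rod bipolar and some cone bipolar cells, had 42 and 31 UMIs, 32.8 CPM (23.6 to 44.3) against 47.9 CPM (32.5 to 68.0), a ratio of 1.46 (0.887 to 2.38). Pcp2 (ENSMUSG00000004630, chr8:3623371-3625545, minus strand), a modulator of Go signaling in ON bipolar cells, had 36 and 12 UMIs, 28.1 CPM (19.7 to 38.9) against 18.5 CPM (9.58 to 32.4), a ratio of 0.659 (0.312 to 1.30). These counts leave a wide range for both. Pcp2 overlaps Pet100 on the other strand (4127 UMIs in all), so its counts are uncertain in the same way as those of Gng13.

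Of 10 listed genes of cone bipolar subtypes, 4 had at least 20 UMIs, 0 were at least 1.5-fold lower (12.8% of all genes) and 1 was higher (9.58%), with a median log2 ratio of 0.03. Grik1, a kainate receptor of OFF bipolar cells, stood at 213 against 170 CPM (ratio 0.797, 0.633 to 0.998). Tacr3, the neurokinin receptor of some OFF types, stood at 17.2 against 30.9 CPM, and its interval of 0.931 to 3.45 included 1. Prkar2b, a regulatory subunit of protein kinase A, stood at 75.0 and 78.8 CPM. The plot of log2 ratios sets the 3 lists beside the 10 genes.

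**Figure D2:**
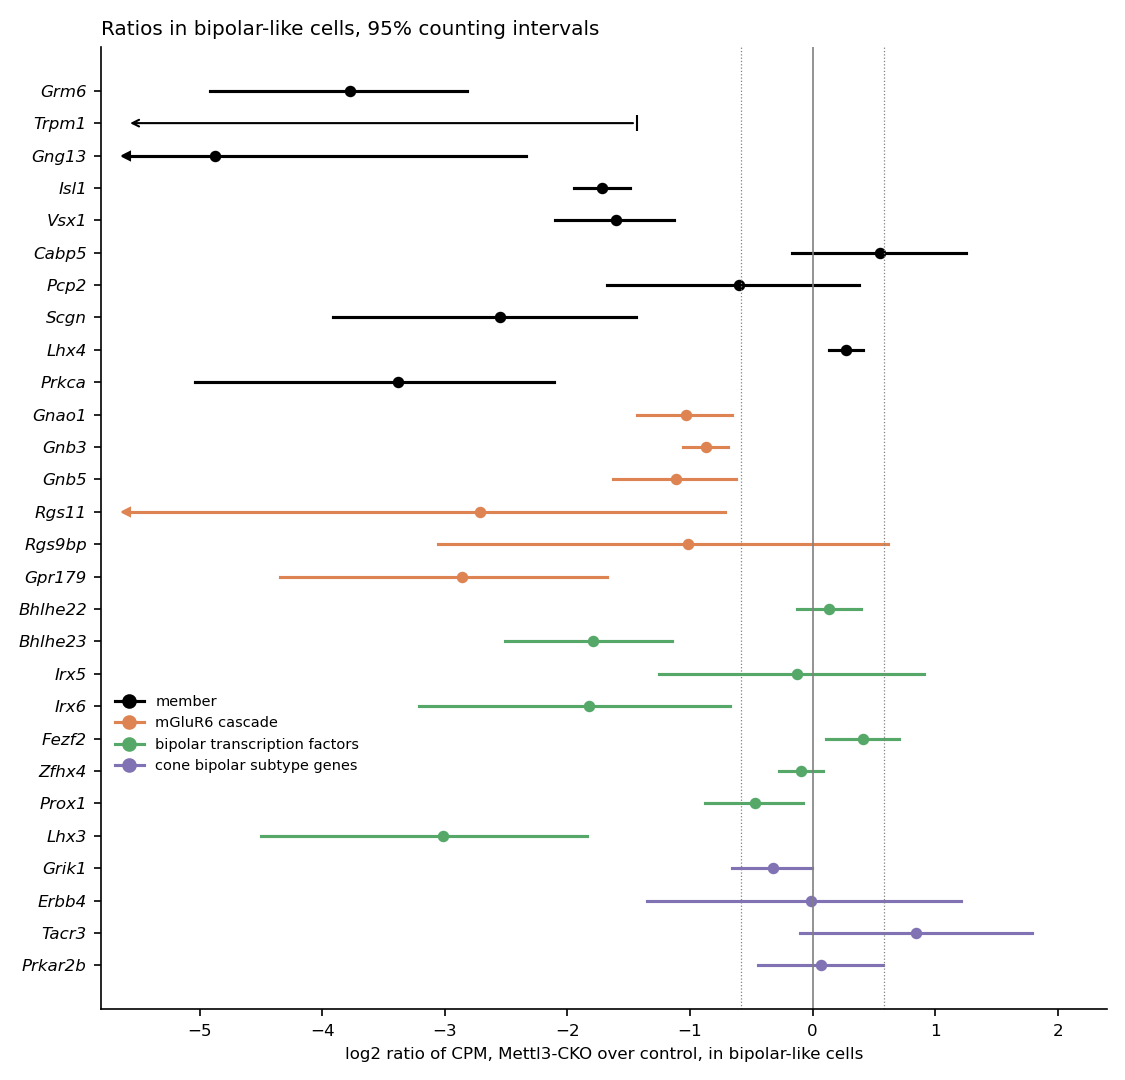
Log2 ratio of Mettl3-CKO over control in bipolar-like cells (horizontal axis) for the 10 genes and for listed genes with at least 20 UMIs, with 95% counting intervals as bars, dotted lines at 1.5-fold and an arrow for the bound of Trpm1. Grm6, Gng13 and Prkca lie at -3.77, -4.87 and -3.38, and Lhx4 at 0.27.

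In rod/bipolar precursor-like cells, the same genes were at or near 0 in both libraries, except Lhx4, Pcp2 and Cabp5. Grm6, Trpm1 and Scgn had 0 UMIs in 213 control and 201 Mettl3-CKO cells (up to 2.90 and 3.08 CPM), Isl1 had 4 and 2, Vsx1 6 and 3, Prkca 7 and 5 and Gng13 9 and 7. Of the 3 genes with at least 20 UMIs, 0 were 1.5-fold lower (5.96% of all genes) and 0 higher (7.9%). Lhx4 stood at 482 CPM (445 to 522) against 570 CPM (528 to 615), a ratio of 1.18 (1.06 to 1.32). Pcp2 stood at 25.1 against 35.9 CPM and Cabp5 at 17.3 against 18.4 CPM, each with an interval of the ratio that included 1. Of the cascade genes, Gnb3 was already present in both libraries, at 538 and 558 CPM.

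The step from precursor-like to bipolar-like cells therefore differed in size from gene to gene. In control cells Isl1 was 294-fold higher in bipolar-like than in precursor-like cells (115 to 1082) and Vsx1 42.8-fold (19.4 to 118), and in Mettl3-CKO they were 168-fold (46.0 to 1401) and 26.5-fold higher (8.49 to 134), with intervals that overlap between libraries. Grm6 was at least 80.6-fold higher in control and at least 5.55-fold in Mettl3-CKO, against a floor of 3 UMIs. Prkca was 14.6-fold higher in control (6.86 to 37.3) and 1.85-fold in Mettl3-CKO (0.426 to 8.04), an interval that included 1. Gng13 was 6.41-fold higher in control (3.16 to 14.7), and in Mettl3-CKO its ratio was 0.264 (0.00587 to 2.06). Lhx4 gave nearly the same value in both libraries, 1.74 (1.57 to 1.92) and 1.77 (1.59 to 1.98).

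Outside bipolar-like cells, some of the genes had few UMIs in control cells and others were shared with photoreceptor classes. In control cells, the bipolar-like class held 83.5% of the UMIs of Grm6, 86.2% of Scgn, 77.0% of Vsx1 and 75.7% of Isl1, though 3.98% of the cells. It held 35.6% of Trpm1, 29.6% of Lhx4, 23.6% of Gng13, 16.1% of Prkca, 15.6% of Cabp5 and 5.52% of Pcp2. Most of the other Trpm1 UMIs were in cluster 24 (24 in control, 58.4 CPM, and 1 in Mettl3-CKO), an unnamed cluster of 43 and 19 cells led by Ttr, Rgs5 and Pmel. Over all cells, which needs no clusters, 5 genes were at least 1.5-fold lower (5.14% of all genes) and 1 was higher (6.83%): Grm6 (13.9 against 0.601 CPM, ratio 0.0433, 0.0221 to 0.0768), Scgn (0.134), Trpm1 (0.163), Isl1 (74.5 against 15.1 CPM, 0.203, 0.179 to 0.230) and Vsx1 (0.244) were lower and Pcp2 (31.1 against 57.9 CPM, 1.86, 1.69 to 2.05) was higher. These levels take in how many cells of each class the libraries hold.

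Gng13, Prkca and Cabp5 have much of their signal in photoreceptor classes. Rod-like cells held 37.8% of control and 56.6% of Mettl3-CKO Gng13 UMIs, at 18.8 and 24.8 CPM, and the interval of the ratio included 1 (0.995 to 1.75). Prkca in rod-like cells stood at 46.9 and 40.6 CPM (ratio 0.865, 0.710 to 1.05), whereas in bipolar-like cells it was 10.4-fold lower (4.32 to 32.8). Cone-like cells held 49.1% and 60.0% of Cabp5 UMIs, at 156 and 154 CPM (ratio 0.988, 0.793 to 1.24). Gng13 in cone-like cells stood at 24.8 and 9.01 CPM (ratio 0.364, 0.167 to 0.761), with 21 and 13 UMIs. Of these 4 values, that of Gng13 in cone-like cells is the 1 whose interval lay below 1.

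Pcp2 and Lhx4 were higher in Mettl3-CKO rod-like cells. Pcp2 stood at 16.4 CPM in control and 57.5 CPM in Mettl3-CKO (ratio 3.51, 2.73 to 4.56) and Lhx4 at 17.8 and 67.3 CPM (3.78, 2.98 to 4.85), where 8.03% of all genes were at least 1.5-fold higher. The rod-like class is made of several clusters, and the difference varied over them. In cluster 8, with 127 control and 175 Mettl3-CKO cells and led by Klhl33, Rp1 and Impg2, Pcp2 stood at 49.3 and 112 CPM (ratio 2.26, 1.60 to 3.26) and Lhx4 at 78.9 and 146 CPM (1.85, 1.40 to 2.47). It held the largest part in both libraries, 40 of 81 control and 198 of 269 Mettl3-CKO rod-like UMIs of Pcp2 and 64 of 88 and 259 of 315 of Lhx4. Its cells were 127 of 1205 control and 175 of 768 Mettl3-CKO rod-like cells, so the ratios of the class also take in its share. The ratios were larger, on few control UMIs, for both genes in cluster 21 (Pcp2 5.22, 1.61 to 26.9, Lhx4 6.72, 2.12 to 34.1, each with 3 control UMIs) and for Pcp2 in cluster 6 (5.6, 2.53 to 13.3). In cluster 0, with 410 and 265 cells, Pcp2 stood at 12 and 17.5 CPM and Lhx4 at 6.29 and 5.24 CPM, with intervals of the ratio that included 1. In cluster 3, with 332 and 171 cells, Pcp2 had 7 and 2 UMIs (ratio 0.528, 0.0535 to 2.77). Lhx4 there had 5 and 8 UMIs (2.96, 0.853 to 11.5). Pcp2 was also higher in the unnamed cluster 1, led by Ccdc136, Dnm3 and C2cd4b (130 against 338 CPM, ratio 2.61, 2.20 to 3.09), in cluster 2, led by Rtl8a, Ece1 and Insm2 (144 against 237 CPM, 1.64, 1.38 to 1.97), and in cone-like cells (4.72 against 38.1 CPM, 4 and 55 UMIs). These clusters held most of the UMIs of Pcp2.

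Isl1 was lower in Mettl3-CKO, with an interval below 1, in each of the other classes and unnamed clusters that held at least 20 UMIs of it over both libraries. In the unnamed cluster 22, led by 3110035E14Rik, Hsd11b2 and Cntnap5a, Isl1 stood at 188 against 24.5 CPM (ratio 0.131, 0.0652 to 0.239), whereas Lhx4 there was at 836 and 812 CPM (0.971, 0.845 to 1.12). In neurogenic-like cells Isl1 stood at 54.6 and 33.2 CPM (0.607, 0.434 to 0.843), which came from 1 of the 2 clusters of that class (57.7 and 26.6 CPM in cluster 7, 48.7 and 48.0 CPM in cluster 18). It stood in cone-like cells at 37.8 and 9.70 CPM (0.257, 0.127 to 0.496) and in RPC-like cells at 11.5 and 1.59 CPM (22 and 5 UMIs). In cluster 16, cells of low depth nearest to the bipolar markers, it was at 310 and 72.6 CPM (0.235, 0.0726 to 0.590). In cluster 9, Grm6 had 20 UMIs in control and 0 in Mettl3-CKO, at least 10.1-fold lower, and Vsx1 15 and 0. In Müller-like cells (340 and 172 cells) Grm6 and Cabp5 had 0 UMIs in both libraries and Isl1 3 and 0, and in amacrine-like cells (71 and 65) Isl1 had 1 and 0. Whether such UMIs come from the cells themselves or from free RNA in the suspension was not tested.

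Bipolar-like cells were clustered again without the 10 genes to see whether the differences lay within groups of like cells. The 6 subclusters were filled unequally: those led by Chodl, Scg2 and Syt4 (subcluster 1) and by Fam135b, Slit2 and Edil3 (subcluster 2) held 51 and 37 of the control cells but 8 and 2 of the Mettl3-CKO cells, whereas that led by Enc1, Atoh7 and Igf2bp1 (subcluster 0) held 19 control and 44 Mettl3-CKO cells. With 1 library a group, a subcluster held mostly by 1 library may reflect that library and not a type of cell. In control, subcluster 2 held all 16 Trpm1 UMIs, 190 of 243 Grm6 UMIs, 33 of 58 Gng13 UMIs, 67 of 81 Scgn UMIs and 172 of 258 Vsx1 UMIs, whereas more Isl1 UMIs were in subcluster 1 (570) than in subcluster 2 (345). Its 2 Mettl3-CKO cells had 1 Grm6 UMI, and 0 Isl1 UMIs, at least 7.60-fold lower than in the 37 control cells. Its Grm6 ratio was 0.0796 (0.00201 to 0.449) and its Vsx1 ratio 0.0879 (0.00221 to 0.497), each on 1 Mettl3-CKO UMI.

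In the other subclusters the ratios varied from gene to gene. Grm6 in subcluster 1 stood at 92.2 and 97.4 CPM, with 37 and 6 UMIs and a ratio of 1.06 (0.364 to 2.52), whereas in subcluster 5, led by the rod genes Rp1, Pdc and Nr2e3, it had 16 UMIs and 1 UMI (ratio 0.0898, 0.00214 to 0.578). Vsx1 in subcluster 1 had 54 UMIs and 1 UMI (0.121, 0.00300 to 0.701). Isl1 was lower in subcluster 1 (1420 against 844 CPM, ratio 0.594, 0.438 to 0.790), and its ratio included 1 in subcluster 0 (221 and 140 CPM, 0.383 to 1.06) and in subcluster 3, led by Mybl1, Pde3a and Pax6 (1133 and 913 CPM, 0.603 to 1.06). The summed cascade list had an interval below 1 in subclusters 0 (ratio 0.731, 0.574 to 0.936), 2 (0.437, 0.253 to 0.706), 3 (0.716, 0.520 to 0.974) and 5 (0.468, 0.342 to 0.633), and one that included 1 in subclusters 1 (0.926, 0.736 to 1.15) and 4 (0.834, 0.479 to 1.40). In subcluster 4, led by Gucy1a1, Dscam and Gsg1, Grm6, Trpm1, Gng13, Isl1, Pcp2 and Prkca had 0 UMIs in both libraries, while Cabp5 (119 and 179 CPM) and Lhx4 (1553 and 1526 CPM) were at their highest. Subcluster 5 had 7580 and 8174 CPM of rod markers.

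**Figure D3:**
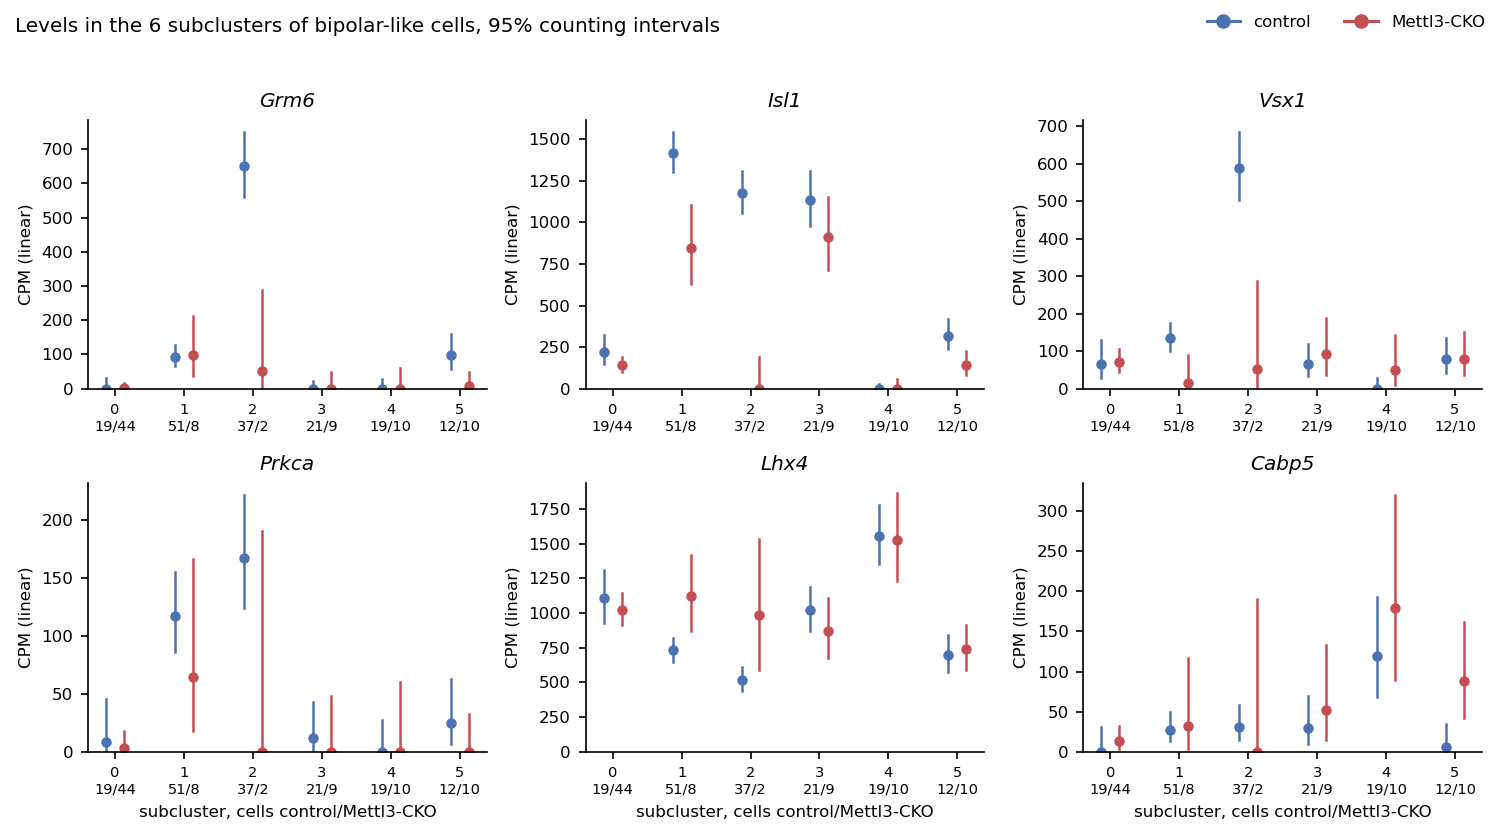
Levels (vertical axis, CPM) of Grm6, Isl1, Vsx1, Prkca, Lhx4 and Cabp5 in the 6 subclusters of bipolar-like cells for each library, with exact 95% Poisson intervals as bars. Subcluster 2 holds 37 control and 2 Mettl3-CKO cells, so its Mettl3-CKO intervals are wide, and Isl1 in subcluster 3 is at 1133 and 913 CPM.

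Giving the control subclusters the weights they have in Mettl3-CKO moved the control level of each gene but Cabp5 toward, or past, that of Mettl3-CKO. Control Grm6 went from 190 to 45.4 CPM, against 13.9 CPM in Mettl3-CKO, and control Vsx1 from 202 to 84.0 CPM, against 66.4 CPM. Control Scgn came to 14.1 CPM against 10.8 CPM and Prkca to 25.9 against 7.73 CPM. Isl1 came to 468 CPM, still above the 281 CPM of Mettl3-CKO, and Lhx4 to 1014 CPM, beside 1012 CPM. Cabp5 went the other way, from 32.8 to 19.5 CPM, against 47.9 CPM in Mettl3-CKO. These weights rest on subclusters of few cells, so a lower share of some bipolar-like cells and a lower level within them cannot be told apart for Grm6 in this design.

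The labels do not give the sex of the pups, and the libraries differed in sex-linked UMIs. Cells with Xist and no Y-linked UMI were 8 of the control cells (0.20%) and 1531 of the Mettl3-CKO cells (49.2%), and cells with Y-linked UMIs and no Xist were 2512 (62.9%) and 725 (23.3%). In bipolar-like cells of Mettl3-CKO, 39 cells were of the first kind and 28 of the second. Grm6 stood at 21.7 CPM in the first and 12.5 CPM in the second, Vsx1 at 68.8 and 58.5 CPM and Prkca at 7.24 and 12.5 CPM, all below the intervals of control. Isl1 stood at 199 CPM (ratio to control 0.216, 0.161 to 0.283) and 476 CPM (0.515, 0.421 to 0.625), intervals that did not overlap, and was below control in both. Lhx4 stood at 1047 and 944 CPM. The sum of the 10 genes had ratios of 0.583 (0.523 to 0.648) and 0.648 (0.581 to 0.722). The Mettl3-CKO cells with Y-linked UMIs are those that match control in this respect, and a difference between pups and one between sexes cannot be told apart.

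**Figure D4:**
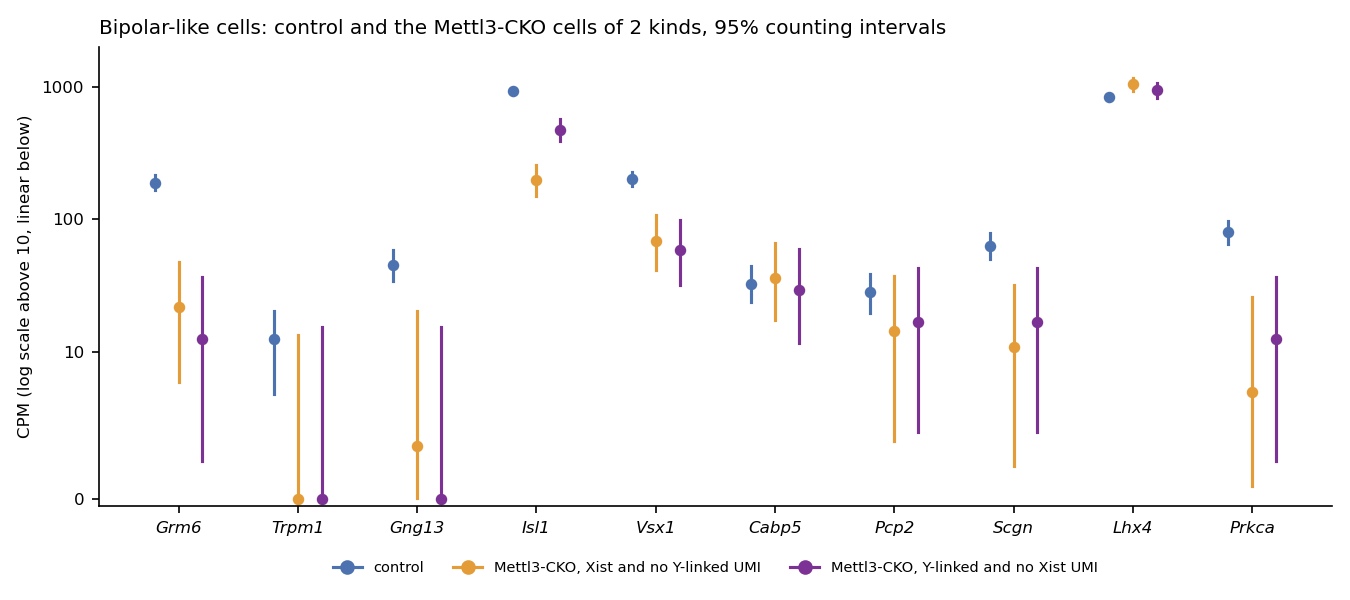
Levels of the 10 genes in control bipolar-like cells and in Mettl3-CKO bipolar-like cells with Xist (39) or with Y-linked UMIs (28), in CPM on an axis that is logarithmic above 10 CPM and linear below, with exact 95% Poisson intervals as bars. Isl1 is at 924 CPM in control and at 199 and 476 CPM in the Mettl3-CKO cells, and Lhx4 is at 838, 1047 and 944 CPM.

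Detection cell by cell was compared after thinning each cell to 2000 UMIs, which kept 157 control and 80 Mettl3-CKO bipolar-like cells and left out 2 and 3. Isl1 was seen in 80 control cells (51.0%, 42.9 to 59.0) and 19 Mettl3-CKO cells (23.8%, 14.9 to 34.6), and Grm6 in 27 (17.2%, 11.7 to 24.0) and 2 (2.50%, 0.304 to 8.74). Lhx4 was seen in 118 (75.2%, 67.6 to 81.7) and 70 (87.5%, 78.2 to 93.8). As a background, rod-like cells, at median depths of 4133 and 4579 UMIs before thinning against 7685 and 7637 in bipolar-like cells, had Isl1 in 0.405% and 0.276% of cells and Grm6 in 0.203% and 0%. Unthinned, Isl1 was seen in 59.7% and 33.7% of bipolar-like cells and Grm6 in 28.9% and 4.82%. Prkca was seen in 7.64% and 0% of thinned bipolar-like cells (0 of 80 allows up to 3.75%), no more than in rod-like cells (9.83% and 7.32%), so these thinned shares are not read as a difference.

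Fewer of the genes were seen together in a Mettl3-CKO cell. At 2000 UMIs, at least 2 of the 10 were seen in 97 control bipolar-like cells (61.8%, 53.7 to 69.4) and 25 Mettl3-CKO cells (31.3%, 21.3 to 42.6), at least 3 in 33 (21.0%, 14.9 to 28.2) and 4 (5.0%, 1.38 to 12.3), and at least 4 in 13 (8.28%) and 0. Unthinned, at least 3 were seen in 56.0% and 18.1%. Precursor-like cells had at least 1 gene in 63.6% and 64.1% and at least 2 in 4.78% and 5.05%, mostly through Lhx4. Over all cells of at least 2000 UMIs, at least 3 genes were seen in 39 of 3093 control cells (1.26%) and 15 of 2585 Mettl3-CKO cells (0.580%), a ratio of 0.460. Bipolar-like cells were 33 of these 39 and 4 of these 15, so most of these Mettl3-CKO cells were in other classes. The ratio also takes in the share of bipolar-like cells among the cells read (3.98% and 2.67%). The log2 ratio was -1.12 (-1.98 to -0.26), and without thinning, where deeper cells show more genes, it was 0.17 (-0.16 to 0.50).

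**Figure D5:**
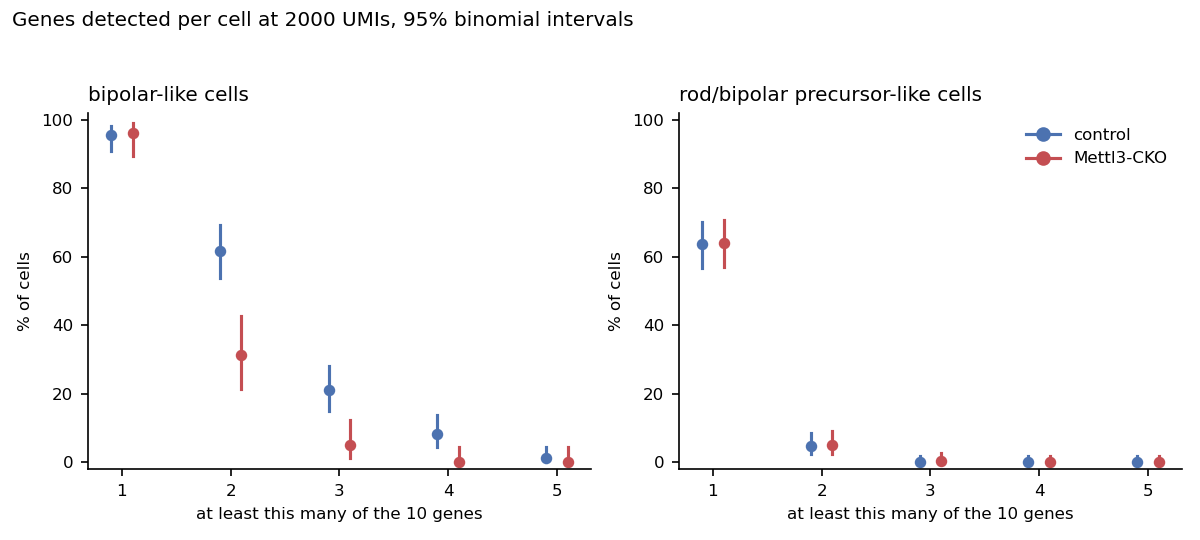
Share of bipolar-like and of precursor-like cells (vertical axis, percent) with at least 1 to 5 of the 10 genes seen at 2000 UMIs a cell, with exact 95% binomial intervals as bars. At least 3 genes were seen in 21.0% of control and 5.0% of Mettl3-CKO bipolar-like cells.

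Some pairs were seen in the same control cells more often, and others less often, than their separate shares give. In thinned control bipolar-like cells, Grm6 and Vsx1 were seen together in 9 cells, where their separate shares give 4.13, Grm6 and Prkca in 6, where they give 2.06, and Isl1 and Prkca in 10, where they give 6.11. Isl1 and Lhx4 were together in 50 cells, where their shares give 60.1, and Lhx4 was seen in 62.5% of cells with Isl1 and 88.3% of cells without. Of the 45 pairs, 17 were seen in at least 3 of 157 control cells and 2 in at least 3 of 80 Mettl3-CKO cells. Grm6, Pcp2 and Scgn were each seen in 2 Mettl3-CKO cells and Trpm1, Gng13 and Prkca in 0. No pair with these genes could reach 3 there, so the counts of pairs are not read as a difference in co-detection. Isl1 and Lhx4 were together in 15 Mettl3-CKO cells, where the shares give 16.6. Counts are sparse and cells of greater depth show more of every gene, so these are descriptions of the cells read and not relations between the genes.

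The genes whose level over classes was most like the summed level of the 10 were Map6, Nrn1l and Cacna2d1. Likeness was Pearson's correlation of log2(CPM + 10) over 30 pools of a class and library, of at least 50 cells each, which share their libraries and in which the bipolar-like pools stand apart, and it is given with no test. It was 0.941 for Map6, 0.924 for Nrn1l, 0.913 for Cacna2d1 and 0.895 for Slc27a3, and 0.861 to 0.873 for Clvs1, Dnaic1, Zyg11b and Spock2. In bipolar-like cells, Map6 stood at 342 CPM in control and 275 CPM in Mettl3-CKO, Nrn1l at 271 and 179 CPM and Cacna2d1 at 332 and 346 CPM. None of these 3 reached the 4-fold difference of Grm6, Gng13, Scgn and Prkca. Lhx4 made up much of the sum, with 614 of its 694 UMIs in control precursor-like cells. Likeness to the sum is therefore not likeness to those genes.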

How the data were processed

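Single-cell RNA-seq libraries of P7 mouse retina were made with the 10x Chromium 3′ kit V3.1. The deposited matrices hold UMI counts per gene and cell, which the authors made with Cell Ranger 3.1.0 on mm10 after trimming with fastp. The authors used Seurat 3.1, keeping cells of over 200 genes and under 20% mitochondrial UMIs. All complete cells were used here, of which 237 control and 86 Mettl3-CKO cells fail that filter. No columns of other series were present.

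The members, the 3 lists (mGluR6 cascade, bipolar transcription factors, cone bipolar subtype genes) and the 14 marker lists were chosen with earlier results of these data known. Cells were scaled to equal totals on a log scale. The 2000 genes of highest variance (without members, listed genes, Mettl3 and sex-linked genes), 10 principal components and 20 neighbours gave 26 Leiden clusters at resolution 1, of which 18 were named from markers ("-like") and 8 stayed unnamed. The bipolar-like cluster was led by Pcp4, Gsg1 and Zfhx3, and the precursor-like cluster by A830036E02Rik, Fabp7 and Dusp4. Doublets were not removed in the main values, and marking the 5% of each library with the highest doublet scores marked 11 and 7 bipolar-like cells. Counts were summed by class and library. CPM have exact Poisson intervals, ratios exact conditional binomial intervals, shares Clopper-Pearson intervals, and share ratios the interval of Katz, each at 95%. A count of 0 was set to a floor of 3 UMIs for bounds. Genes of at least 20 UMIs over both libraries of a class entered counts past 1.5-fold. Cells were thinned to 2000 UMIs with a fixed seed for detection, without the shallower 901 (control) and 524 (Mettl3-CKO) cells. The named genes are the members, the listed genes and the 8 genes of highest likeness among those with at least 100 UMIs. Marker genes and genes leading clusters are named to describe the classes. Gene symbols matched the annotation for 30843 genes. Depth per cell limits low genes most, as 1 UMI in the pooled Mettl3-CKO bipolar-like cells is 1.55 CPM. The intervals were tested on simulated counts. Alternatives were other scalings, filters, resolutions, thinning depths, cell naming rules, doublet removal and the split by sex-linked UMIs. Python 3.11.15, numpy 2.4.6, scipy 1.17.1, pandas 2.3.3, scikit-learn 1.9.0, leidenalg 0.10.2, igraph 0.11.9 and matplotlib 3.10.9 were used.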

Additional observations from a re-analysis of the deposited data

How the results depend on the processing

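In bipolar-like cells, 6 or 7 of the 10 genes were at least 1.5-fold lower in Mettl3-CKO under each alternative run. The share of all genes, 12.8%, is given for the main run only, where 9 of the 10 had at least 20 UMIs. Of 91 summary values under alternatives, 75 stayed within their limits, 15 moved and 1 changed direction. The log2 ratio of the summed 10 genes in bipolar-like cells, -0.73, was -1.0 with separate clustering of the libraries (157 and 150 cells), and -0.75 without the subcluster led by rod genes, a choice made after seeing the data. Without Lhx4 it was -1.82, and -2.11 at resolution 2, -2.06 with the listed genes among the variable genes, -2.49 with separate clustering, -2.12 for Mettl3-CKO cells with Xist and -1.34 for those with Y-linked UMIs. Over all cells the sum was at -0.22, and at -0.063 as a mean of per-cell CPM, -0.28 in cells of at least 4000 UMIs and -0.28 for Mettl3-CKO cells with Y-linked UMIs. The log2 ratio of the share of all cells with at least 3 genes, -1.12, was -2.36 at 1000 UMIs, -0.22 for at least 2 genes and 0.17, the other direction, unthinned, and at least 4 genes were seen in 14 and 0 cells. Pairs in at least 3 control cells were 17, and 37 unthinned, and in at least 3 Mettl3-CKO cells 2, with 9 unthinned and 4 without marked doublets. Counts of pairs are not scaled to the number of cells, which differs between the libraries. Cone bipolar subtype genes at least 1.5-fold lower were 0, and 3 with no minimum of UMIs. These 3 were Neto1, Chrm2 and Igfn1, with 2, 5 and 4 control UMIs and 0 in Mettl3-CKO, too few to compare. Kcng4, with 1 and 4 UMIs, went the other way. The share of all genes with no minimum was not computed, so the 3 are not read as a difference. Cabp5 over all cells, 0.53, was -0.10 for Mettl3-CKO cells with Y-linked UMIs. The causes were not tested. Over the alternatives, single genes in bipolar-like cells ranged from -4.81 to -3.13 (Grm6), -2.52 to -0.96 (Isl1), -1.99 to -1.51 (Vsx1), -3.48 to -2.68 (Prkca), -3.24 to -1.92 (Scgn), -4.92 to -3.12 (Gng13, where it had UMIs), 0.14 to 0.32 (Lhx4), -0.17 to 0.72 (Cabp5) and -1.34 to 0.98 (Pcp2). No paired analysis was possible because each group holds 1 library. Trpm1 and Gng13, with 16 and 58 control UMIs, are limited by depth: in Mettl3-CKO cells with Y-linked UMIs both had 0 UMIs, and the floor of 3 UMIs gave bounds of -1.85 for Gng13 (-3.07 in cells of at least 4000 UMIs) and 0.0032 for Trpm1, so a difference in Trpm1 was not detectable in them.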

Other observations

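Among other classes, Lhx4 in amacrine-like cells stood at 18.4 CPM in control and 85.8 CPM in Mettl3-CKO (10 and 58 UMIs, ratio 4.66, interval 2.36 to 10.2), and in neurogenic-like cells at 227 and 303 CPM (1.34, 1.17 to 1.52). In cluster 9 it stood at 75.0 and 35.1 CPM (0.467, 0.320 to 0.678), the other direction. Zfhx4, a zinc finger homeodomain gene of the transcription factor list, was the 1 listed gene of that list at least 1.5-fold higher in precursor-like cells (15.7 against 38.4 CPM, 2.45, 1.42 to 4.37). Over all cells of Mettl3-CKO, Isl1 stood at 10.7 CPM in cells with Xist and 30.3 CPM in cells with Y-linked UMIs, and Pcp2 at 66.6 and 44.2 CPM, against 31.1 CPM in control. Scgn in subcluster 1 stood at 19.9 and 97.4 CPM on 8 and 6 UMIs (ratio 4.88, 1.40 to 16.1), opposite to the bipolar-like class as a whole.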
